A study of Mus musculus with 2 samples.

Results

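Ucn3 nuclei were single nuclei of the mouse paraventricular hypothalamus (PVH) that held at least 1 unique molecular identifier (UMI, a tag that marks 1 captured RNA molecule) of Ucn3. They were taken from barcodes with at least 500 genes and exactly 1 hashtag, and they held at most 1 UMI of Gad1, Gad2 and Slc32a1 together, under 2 UMIs of Crh and under 10 each of Oxt and Avp. Members were thus chosen by measured UMIs of these 7 genes. The rule kept 103 of 4904 one-tag nuclei, out of 6173 barcodes in all. Levels of the 7 genes are given as description.

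Nuclei came from the PVH of 17 mice aged 4 weeks, each with Sim1-Cre and the Sun1-GFP reporter, which puts GFP on the nuclear envelope of cells in which the Sim1 promoter has driven Cre. Of these, 4 carried 1 floxed Otp allele beside a wild-type one, 6 carried an Otp Q153R allele beside a wild-type one, and 7 had neither. All mice were pooled into 1 droplet library, in which hashtag features named KD, Q153R and Ctrl marked the nuclei. No label ties the KD feature to a genotype; the floxed one is what remains once the others are matched, so nuclei are called labelled KD, labelled Q153R and labelled Ctrl. Each genotype was 1 pool in 1 library, so the values below rest on no replicates and no test was run. Levels are UMIs summed over nuclei scaled to counts per 1000000 summed UMIs (CPM), and every interval is a 95% interval that treats UMIs or nuclei as independent and covers counting error only. How far differences in sex, depth, dissection or sorting take part in a difference between pools was not tested unless stated.

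Ucn3 encodes urocortin 3, a peptide of the corticotropin-releasing hormone (CRH) family that acts on the type 2 CRH receptor and is known for roles in stress responses and feeding. Hypothalamic Ucn3 neurons are known from the rostral perifornical area beside the PVH and from the PVH border. Trh encodes thyrotropin-releasing hormone, which drives the pituitary-thyroid axis, and Penk encodes the precursor of the enkephalins, opioid peptides. Sim1 and Otp encode transcription factors needed for the development of PVH peptide neurons.

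Promoter sequences of Ucn3 and Trh are shown because their transcripts occurred together in most nuclei of the set. They run from 250 bases before to 50 bases after the annotated start site in RefSeq on GRCm38.p6, at chr13:3945300-3945599 for Ucn3 and chr6:92244601-92244900 for Trh, both on the minus strand and written 5′ to 3′. In Ucn3, capitals mark the homeodomain core TAAT or its reverse complement ATTA. In Trh, capitals mark CGTCA, the reverse complement of the short cAMP response motif TGACG.
Ucn3: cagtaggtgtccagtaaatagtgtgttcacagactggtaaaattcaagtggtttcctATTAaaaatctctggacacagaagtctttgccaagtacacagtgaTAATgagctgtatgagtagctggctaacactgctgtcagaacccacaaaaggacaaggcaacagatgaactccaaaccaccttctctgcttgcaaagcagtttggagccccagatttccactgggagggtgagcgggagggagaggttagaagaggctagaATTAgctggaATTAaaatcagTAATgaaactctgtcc
Trh: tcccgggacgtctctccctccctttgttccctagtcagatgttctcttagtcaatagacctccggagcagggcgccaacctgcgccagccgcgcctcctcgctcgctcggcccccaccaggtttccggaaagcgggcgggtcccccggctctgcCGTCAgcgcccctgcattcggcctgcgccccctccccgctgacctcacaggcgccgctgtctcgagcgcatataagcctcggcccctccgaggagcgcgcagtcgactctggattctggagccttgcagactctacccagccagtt
Both strands were searched for the cAMP response element TGACGTCA, its short form TGACG, the SIM1-ARNT2 core ACGTG, the paired homeodomain core TAATTA, the single core TAAT and the TATA box TATAAA. The short form TGACG lies inside the full element and the single core TAAT inside the paired one. The Ucn3 window held TAAT at 5 places, at -193, -148, 13, 23 and 34 bases from the start site, and no other motif of the search. The Trh window held TGACG once, at -96, and no other. TAAT occurs in 58.0% and TGACG in 20.8% of the 32851 RefSeq promoters of that length. The remaining shares were 1.79% for TGACGTCA, 19.6% for ACGTG, 5.29% for TAATTA and 13.6% for TATAAA.

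Most Ucn3 nuclei carried few Ucn3 UMIs. Of the 103 nuclei, 45 held 1 UMI, 36 held 2 to 4 and 22 held 5 or more, with a median of 2 and a maximum of 13. Just outside the rule stood 11 one-tag nuclei with a Ucn3 UMI, of which 5 were left out by the GABAergic genes, 4 by Oxt, 2 by Avp and 0 by Crh. These had 1 Ucn3 UMI in 10 cases and at most 4. Inside the rule, the highest counts were 3 UMIs of Oxt and 6 of Avp, and 5 nuclei had the 1 Crh UMI that the rule allows. The kept nuclei held 304 of the 318 Ucn3 UMIs of all one-tag nuclei. Their median depth was 5969 UMIs, with a range of 650 to 21707, against 5238 UMIs in the other 4801 one-tag nuclei.

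Ucn3 nuclei lay mainly in 1 cluster. One-tag nuclei were clustered without Ucn3, Trh, Penk, Nos1, Etv1 and the other listed genes, which gave 24 clusters. A single cluster of 129 nuclei, called the main cluster here, held 77 of the 103 Ucn3 nuclei, or 74.8% (65.2–82.8), and these made up 59.7% of it. Its 10 genes of highest fold over all other nuclei were Ucn3, Nxph1, Penk, Trh, Piezo2, Cntnap5c, Gm28928, Etv1, Fam20a and Btc. Other clustering settings placed 74 to 77 Ucn3 nuclei in 1 cluster.

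**Figure D1:**
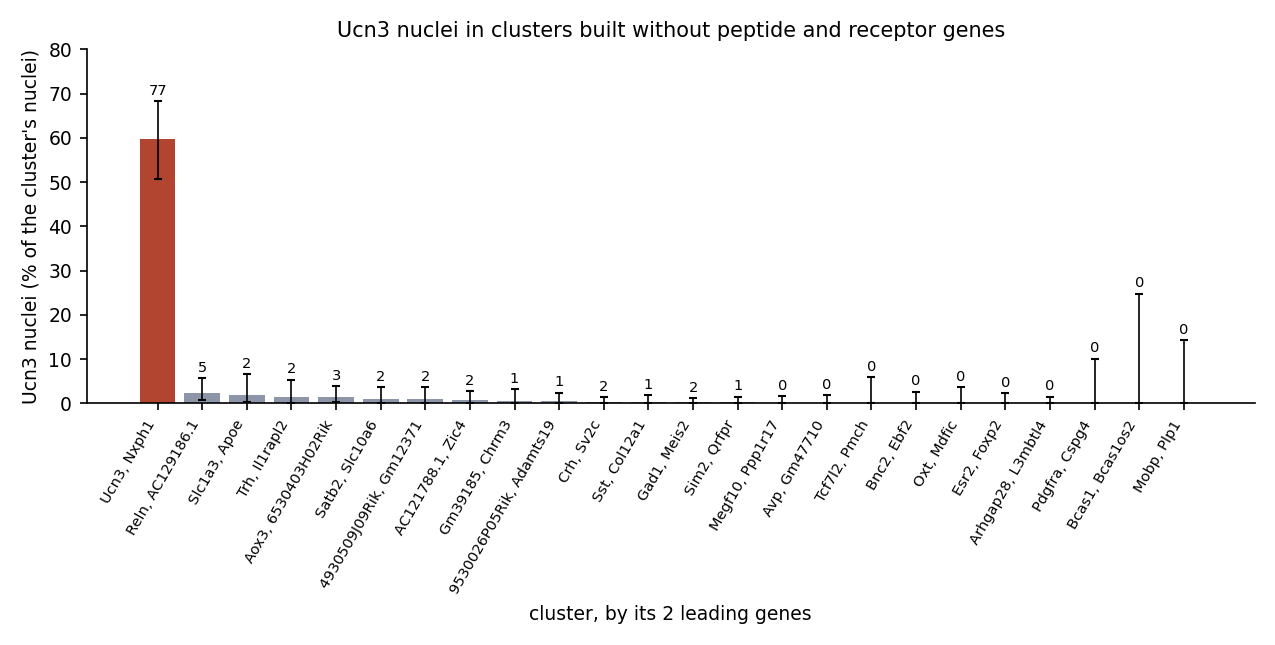
Share of each cluster's nuclei that met the Ucn3 rule, in percent, with 95% exact binomial intervals; clusters are named by their 2 leading genes and the number of Ucn3 nuclei stands above each bar. The main cluster stands at 59.7% and no other cluster exceeds 2.45%.

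Outside the main cluster, the share of nuclei with a Ucn3 UMI was near that of the GABAergic-like and glial clusters. A Ucn3 UMI was found in 78 of 129 main-cluster nuclei, or 60.5% (51.5–69.0), against 36 of 4775 nuclei in all other clusters, or 0.754% (0.529–1.04). In the GABAergic-like cluster, with 5 GABAergic markers among its 10 leading genes, the share was 0.799% (0.260–1.85), and in the glial clusters it was 1.20% (0.146–4.28). Median depths were 5724, 5238, 5552 and 2560 UMIs in the main cluster, all others, the GABAergic-like cluster and the glial clusters. The 26 Ucn3 nuclei outside the main cluster were spread over 13 clusters, and 23 of them held 1 Ucn3 UMI. Within the main cluster 22 nuclei held 1 UMI, 34 held 2 to 4 and 21 held 5 or more. A single Ucn3 UMI outside the main cluster is thus not taken by itself as evidence of expression. Whether it is expression or background was not tested, and the wide intervals of the GABAergic-like and glial shares cannot decide it. Outside the main cluster, 2 further nuclei held 2 to 4 Ucn3 UMIs and 1, labelled KD, held 7. All 26 stay among the Ucn3 nuclei unless stated, and some results below are also given for the 77 nuclei inside the main cluster.

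The label was checked against its 5 marker genes, Ucn3, Trh, Penk, Nos1 and Etv1. Of the 103 Ucn3 nuclei, 74 held a Trh UMI, 39 a Penk UMI, 29 a Nos1 UMI and 27 an Etv1 UMI, and 87 held at least 1 of these 4. Trh stood at 421 CPM (374–473), against 47.1 CPM (44.6–49.8) in other one-tag nuclei. Penk stood at 402 CPM (356–452), against 36.4 CPM (34.2–38.8). Nos1, which encodes neuronal nitric oxide synthase, stood at 122 CPM (97.0–151), against 33.8 CPM (31.7–36.1). Etv1, an ETS transcription factor, stood at 73.4 CPM (54.4–96.7), against 13.1 CPM (11.7–14.5), but it lay under the minimum of 10 expected UMIs that other genes had to meet. All 4 markers were higher in Ucn3 nuclei than in other one-tag nuclei as a whole, with level intervals that did not overlap. Etv1 was also a leading gene of the cluster led by Aox3, at 112 CPM. Among main-cluster nuclei that did not meet the rule, thinned to equal depth, 43.5% held Nos1 and 23.9% Etv1. Among main-cluster Ucn3 nuclei these shares were 25.7% and 21.6%, with overlapping intervals. Trh and Penk were rarer in the former, at 21.7% and 8.70% against 52.7% and 37.8%. Nos1 and Etv1 thus did not mark Ucn3 nuclei within the main cluster. The markers were picked with earlier results of these data known, so their direction is no independent check of the name.

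Most marker lists of other cell types summed to less in Ucn3 nuclei than in other one-tag nuclei. Microglial, endothelial and leptomeningeal lists summed to slightly more. Of 8 GABAergic markers, 6 were at 0 in Ucn3 nuclei, including Gad1 and all Dlx genes, and their summed level was 2.93 CPM against 113 CPM in other one-tag nuclei; Gad1, Gad2 and Slc32a1 are part of the rule. All 6 oligodendrocyte-precursor markers were at 0. Astrocyte markers summed to 88.0 CPM with Aldh1l1 and Gfap at 0, against 119 CPM in other one-tag nuclei and 3106 CPM in the glial clusters. They stood at 57.8 CPM in the Ucn3 nuclei inside the main cluster and at 199 CPM in those outside it. Oligodendrocyte markers summed to 58.7 CPM with Mobp and Opalin at 0, against 142 CPM in other one-tag nuclei. Microglial markers summed to 74.8 CPM, against 71.5 CPM, with C1qa, C1qb, Csf1r and Tmem119 at 0. Endothelial, mural, ependymal or tanycyte, and leptomeningeal markers each summed to under 10 CPM, with all but 1 or 2 genes of each list at 0. Endothelial markers stood at 8.80 CPM against 6.97 CPM and leptomeningeal ones at 2.93 CPM against 1.955 CPM. Mural markers stood at 1.47 CPM against 2.58 CPM and ependymal or tanycyte ones at 7.34 CPM against 14.6 CPM. Peptides of neighbouring regions, 7 of 8 of which were measured, summed to 44.0 CPM against 58.6 CPM, with Npvf and Tac2 at 0.

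Against all other one-tag nuclei, the highest ratios belonged to Penk, Nxph1, Trh, Piezo2 and Cntnap5c. Of 8115 genes with at least 10 expected UMIs in the smaller group, 117 (1.44%) were at least 2-fold higher and 354 (4.36%) at least 2-fold lower in Ucn3 nuclei. With the Ucn3 nuclei of the main cluster alone, 569 genes in place of 471 were at least 2-fold apart. The genes of the rule are left out of this and of the list counts below. Penk was 11.0-fold higher (9.62–12.6) and Trh 8.93-fold higher (7.83–10.2). Nxph1, which encodes neurexophilin 1, a secreted ligand of alpha-neurexins, was 9.76-fold higher (9.29–10.3) at 2881 CPM against 295 CPM. Piezo2, a mechanically gated ion channel, was 8.54-fold higher (6.54–11.0) at 107 CPM against 12.5 CPM. Cntnap5c, a contactin-associated protein of the neurexin family, was 6.99-fold higher (6.36–7.67). Adra1a, the alpha-1A adrenergic receptor, was 5.86-fold higher (4.85–7.03) at 197 CPM against 33.6 CPM. Gm28928 (5.51-fold), the integrin gene Itga6 (4.12-fold), the potassium channel gene Kcnk13 (4.00-fold), Kctd8 (3.98-fold), the collagen gene Col18a1 (3.96-fold) and Epb41l4a (3.79-fold) completed the 12 highest. The ratio of Kcnk13 was 1.44 with at least 5 Ucn3 UMIs required. Nxph1 was found in 83 of the 103 nuclei, Cntnap5c in 78, Adra1a in 54 and Piezo2 in 30.

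**Figure D2:**
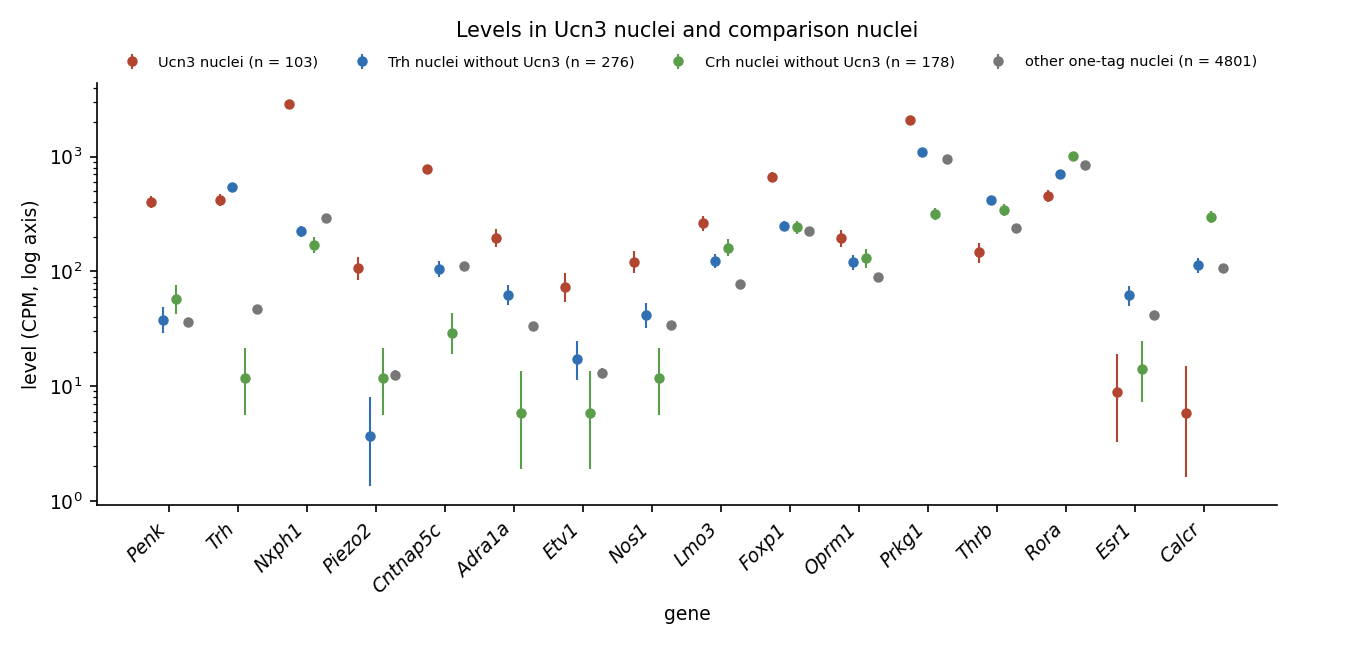
Level of selected genes (CPM, log axis) in Ucn3 nuclei, Trh nuclei without Ucn3, Crh nuclei without Ucn3 and other one-tag nuclei, with 95% Poisson intervals. Nxph1 stands at 2881 CPM in Ucn3 nuclei and at 171 to 295 CPM in the others, while Calcr stands at 5.87 CPM in Ucn3 nuclei and above 100 CPM in the others.

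Several transcripts were nearly or wholly missing from Ucn3 nuclei. Meis2 and St18, transcription factor genes, and the imprinted gene Asb4 had 0 UMIs in Ucn3 nuclei, against 577, 824 and 419 UMIs in the others, and the upper interval bounds of their ratios were 0.255, 0.178 and 0.352. Gm29478 also had 0 UMIs. Meis2 was a leading gene of the GABAergic-like cluster, at 125 CPM, and the rule limits GABAergic genes. St18 was a leading gene of the glial cluster with oligodendrocyte markers, at 4262 CPM. The other one-tag nuclei include these cells. The counts of Meis2 and St18 by themselves thus do not set Ucn3 nuclei apart from other neurons without GABAergic genes. Gm44593 (0.0227), Gm39185 (0.0412), Stxbp6 (0.0480) and Hs3st2 (0.0492) had the next lowest ratios. Zic1, a zinc finger transcription factor, had 1 UMI in Ucn3 nuclei and 708 in the others, a ratio of 0.056 (0.0014–0.314).

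Among transcription factors of the PVH list, 40 of 72 could be compared, of which 3 were at least 2-fold higher and 19 at least 2-fold lower. Over all genes compared, 1.44% were higher and 4.36% lower by that measure. The median log2 ratio of the list was -0.72, against -0.03 over all genes compared. This did not hold against every group. Against Trh nuclei without Ucn3, described below, 7 of 37 were higher and 13 lower, where 2.53% and 4.99% of all genes were. The median was -0.10, against -0.06 over all genes. Against Crh nuclei without Ucn3, 12 of 32 were higher and 9 lower, where 13.0% and 7.98% of all genes were. The median there was 0.41, against 0.14 over all genes. The 3 genes higher than in other one-tag nuclei were Lmo3, a LIM-only cofactor (3.37-fold, 2.88–3.93), Foxp1, a forkhead factor (2.93-fold, 2.66–3.23), and Sox5, an SRY-box factor (2.18-fold, 1.98–2.39). Foxp1 had a UMI in 82 nuclei and stood at 666 CPM against 227 CPM. Against other one-tag nuclei, 14 steroid and nuclear receptors could be compared, with 2 at least 2-fold higher and 1 lower. Over all genes, 1.44% were higher and 4.36% lower. Rxrg, a retinoid X receptor, was 2.81-fold higher (1.94–3.94) and Nr2f2, or COUP-TFII, 2.40-fold higher (1.75–3.22). Esr1, oestrogen receptor alpha, was at 8.80 CPM against 41.7 CPM, a ratio of 0.211 (0.0773–0.461). The retinoid-related orphan receptors Rora and Rorb had ratios of 0.538 (0.480–0.602) and 0.543 (0.417–0.697).

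Of 61 genes in the list of energy balance receptors, 25 could be compared, with 1 at least 2-fold higher, which was Adra1a, and 8 lower, where 1.44% of all genes were higher and 4.36% lower. The median log2 ratio was -0.33, against -0.03 over all genes. Calcr, the calcitonin receptor, stood at 5.87 CPM in Ucn3 nuclei against 106 CPM in the others, a ratio of 0.0552 (0.0150–0.141), and all 4 of its UMIs lay in Ucn3 nuclei outside the main cluster. Npffr1, a neuropeptide FF receptor, and Npy1r, the Y1 receptor of neuropeptide Y, each had 1 UMI in Ucn3 nuclei and ratios of 0.068 (0.0017–0.382) and 0.092 (0.0023–0.514). Htr4, a serotonin receptor, stood at 77.8 CPM against 47.7 CPM and Tacr1, the substance P receptor, at 38.1 CPM against 24.7 CPM, both short of 2-fold. With at least 5 Ucn3 UMIs required, the ratio of Htr4 lay on the other side of 1, at 0.911.

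Of the CRH family, Ucn3 nuclei held few UMIs other than those of Ucn3 itself. Ucn and Ucn2, the other urocortins, had 0 UMIs. Crhr2, the receptor of urocortin 3, had 1 UMI, or 1.47 CPM, against 4.72 CPM in other nuclei, a ratio of 0.311 (0.0078–1.76). Crhr1 also had 1 UMI and Crhbp, which encodes the CRH binding protein, 2. For Crhr2, Crhr1 and Crhbp no difference from other nuclei was detectable at this depth.

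Of 16 genes of thyroid hormone signalling, 8 could be compared, with 2 at least 2-fold higher, Trh and Rxrg, and 0 lower, where 1.44% of all genes were higher and 4.36% lower. Thrb, thyroid hormone receptor beta, stood at 147 CPM against 237 CPM, a ratio of 0.619 (0.503–0.754). Thra, the alpha receptor, had a ratio of 0.849 (0.605–1.16), and Trhde, the ectoenzyme that degrades thyrotropin-releasing hormone, a ratio of 0.994 (0.863–1.14). Trhr, a receptor of that peptide, was at 14.7 CPM against 15.6 CPM.

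Opioid genes and genes of nitric oxide signalling were mixed. Of 8 opioid genes 4 could be compared, with Penk and Oprm1 at least 2-fold higher. Over all genes compared, 1.44% were at least 2-fold higher and 4.36% lower, which also holds beside the nitric oxide list below. Oprm1, the mu opioid receptor, stood at 195 CPM against 89.0 CPM, 2.19-fold higher (1.83–2.61). Oprd1, the delta receptor, and Pdyn, which encodes prodynorphin, had ratios of 2.88 (1.41–5.30) and 2.26 (1.22–3.87) under the minimum for the comparison. Of 10 nitric oxide and cGMP genes 8 could be compared, with Nos1 (3.60-fold, 2.84–4.51) and Prkg1, a cGMP-dependent kinase (2.19-fold, 2.07–2.31), at least 2-fold higher. With at least 5 Ucn3 UMIs required, the ratio of Nos1 was 1.86 and thus short of 2-fold. Nos1ap, the Nos1 adaptor, Prkg2 and the cGMP phosphodiesterase gene Pde9a were lower, at 0.388, 0.249 and 0.237 times the level of other nuclei.

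Of 21 peptide processing genes compared, 2 were at least 2-fold higher and 0 lower, where 1.44% of all genes were higher and 4.36% lower, and the median log2 ratio was 0.25. Pcsk1, which encodes prohormone convertase 1, stood at 280.2 CPM against 139.6 CPM, 2.01-fold higher (1.73–2.32), and the vesicle gene Rab3b was 2.16-fold higher (1.69–2.73). Both were short of 2-fold under several alternatives, with Pcsk1 at 1.54 and Rab3b at 1.83 by the mean CPM of nuclei. The granule gene Chgb was 1.79-fold higher (1.44–2.21). Of 13 neuropeptide genes compared, 2 were at least 2-fold higher, Trh and Penk, and 3 lower. Sst, which encodes somatostatin, stood at 76.3 CPM against 162 CPM, and the synaptic organisers Cbln4 and Cbln2 had ratios of 0.0910 and 0.146. Of 18 imprinted genes 1 was at least 2-fold higher, Plagl1 at 2.12-fold (1.48–2.95), but its ratio was 0.377 among nuclei with 5 or more Ucn3 UMIs. Meg3 (1.29-fold) and Gnas (1.35-fold) were a little higher and Nnat (0.739) lower.

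The glutamatergic transcript Slc17a6 was present in Ucn3 nuclei at a low level. This gene encodes a vesicular glutamate transporter widely used in the hypothalamus, and it stood at 69.0 CPM (50.7–91.7) in Ucn3 nuclei, against 133 CPM (128–137) in other one-tag nuclei. Slc17a7 and Slc17a8, the remaining vesicular glutamate transporters, had 0 UMIs. Of 27 glutamate and GABA genes compared, 0 were at least 2-fold higher and 1 lower, beside 1.44% higher and 4.36% lower over all genes. That gene was Grik3, a kainate receptor subunit, with 1 UMI and a ratio of 0.0503 (0.00127–0.281). Grik3 was also a leading gene of the GABAergic-like cluster, at 144 CPM, and the rule limits GABAergic genes, so its low level is not independent of the rule. Under the alternatives its ratio was at most 0.163. Grm7 (1.49-fold) was higher and Grm8 (0.515) lower, both short of 2-fold. Of 9 activity genes compared, 0 were at least 2-fold higher and 1 lower, Npas4, at 0.304 times (0.122–0.628), where 4.36% of all genes were lower. Short of 2-fold, Fosl2 stood at 1.70 times (1.15–2.42), Homer1 at 1.36 times (1.15–1.61) and Nr4a1 at 0.575 times (0.327–0.938) the level of other nuclei.

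Against Trh nuclei without Ucn3, Ucn3 nuclei had over 10-fold higher levels of Piezo2, Nxph1, Penk, Creb5 and Fam20a. The Trh nuclei were 276 nuclei with at least 2 Trh UMIs and no Ucn3 UMI that otherwise met the rule, with a median depth of 5562 UMIs. Of 8214 genes, 208 (2.53%) were at least 2-fold higher and 410 (4.99%) lower in Ucn3 nuclei. Piezo2 was 29.1-fold higher (12.8–82.0) in Ucn3 nuclei, with 73 UMIs against 6. Nxph1 was 12.9-fold higher (11.6–14.5), Penk 10.6-fold higher (8.01–14.2), the microtubule-severing gene Fign 12.2-fold higher and Fam20a 16.3-fold higher (8.34–35.5). Creb5, a transcription factor of the CREB family, was 16.8-fold higher (6.54–54.8). Foxp2 was 16.0-fold higher with its 100 UMIs in 14 nuclei, but its ratio was 0.526 among nuclei with 5 or more Ucn3 UMIs.

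In the other direction, Asb4, Eya4, Sall3, Gm12082 and Gm27239 had 0 UMIs in Ucn3 nuclei and 34 to 55 in Trh nuclei. Zic1 (0.0275) and Npffr1 (0.0307) had 1 UMI each in Ucn3 nuclei. Thrb was at 147 CPM against 417 CPM, a ratio of 0.352 (0.282–0.435), Esr1 at 0.142 times (0.0510–0.321) and Calcr at 0.0521 times (0.0140–0.136). Pcsk1 was 3.01-fold higher (2.42–3.75) in Ucn3 nuclei, at 280.2 CPM against 93.1 CPM. Otp stood at 91.0 CPM against 74.7 CPM, a ratio of 1.22 (0.882–1.67), and Sim1 had a ratio of 0.932 (0.819–1.06), so both intervals included 1. Trh itself stood at 421 CPM against 539 CPM, where it chose the comparison nuclei.

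Crh nuclei without Ucn3 differed in more genes. They were 178 nuclei with at least 2 Crh UMIs, with a median depth of 4312.5 UMIs, and Crh chose them. Of 7673 genes, 994 (13.0%) were at least 2-fold higher and 612 (7.98%) lower in Ucn3 nuclei, and the median log2 ratio was 0.14. Trh was 36.0-fold higher (19.3–75.8), Adra1a 33.6-fold higher (134 UMIs against 5), Gm28928 26.7-fold higher (20.4–35.6) and Cntnap5c 26.6-fold higher (17.8–41.5). Creb5 (35 UMIs against 1), Osbpl3 (31 against 1) and Cpne8 (59 against 2) were nearly missing from Crh nuclei. Hs3st2, a heparan sulfate sulfotransferase gene, had 2 UMIs in Ucn3 nuclei and 262 in Crh nuclei, a ratio of 0.00957 (0.00115–0.0349). Cxcl1, Depdc1b, Pgf, Trib1, Crispld1 and Egln2 had 0 UMIs in Ucn3 nuclei and 23 to 63 in Crh nuclei. Of 14 activity genes compared, 11 were at least 2-fold lower, with a median log2 ratio of -2.01. Npas4 and Nr4a1 had ratios of 0.0869 (0.0341–0.186) and 0.129 (0.0721–0.217). The filter counts UMIs of both groups, so genes with UMIs mainly in Crh nuclei can pass it. The count is thus given as description only. Against Trh nuclei without Ucn3, 8 activity genes could be compared, with 2 higher, 2 lower and a median of 0.42. Against other one-tag nuclei the median was 0.07 over 9 genes.

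Within the Ucn3 nuclei, Penk and Nos1 were rarely found together. Of the 103 nuclei, 36 held Penk but not Nos1, 26 held Nos1 but not Penk, 3 held both and 38 held neither, where 11.0 would hold both if the transcripts were independent. The odds ratio was 0.124 (0.0221–0.458) over all Ucn3 nuclei and 0.0802 (0.0136–0.317) in the 77 main-cluster nuclei. Among the other 4801 one-tag nuclei it was 0.788 (0.570–1.07). With each nucleus thinned to 2000 UMIs, which left out 8 shallower nuclei, 29 held Penk, 19 held Nos1 and 0 held both. Trh did not follow this division: 34 of the 39 Penk nuclei and 24 of the 29 Nos1 nuclei held a Trh UMI. Etv1 was found in 5 of the Penk nuclei and 14 of the Nos1 nuclei.

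**Figure D3:**
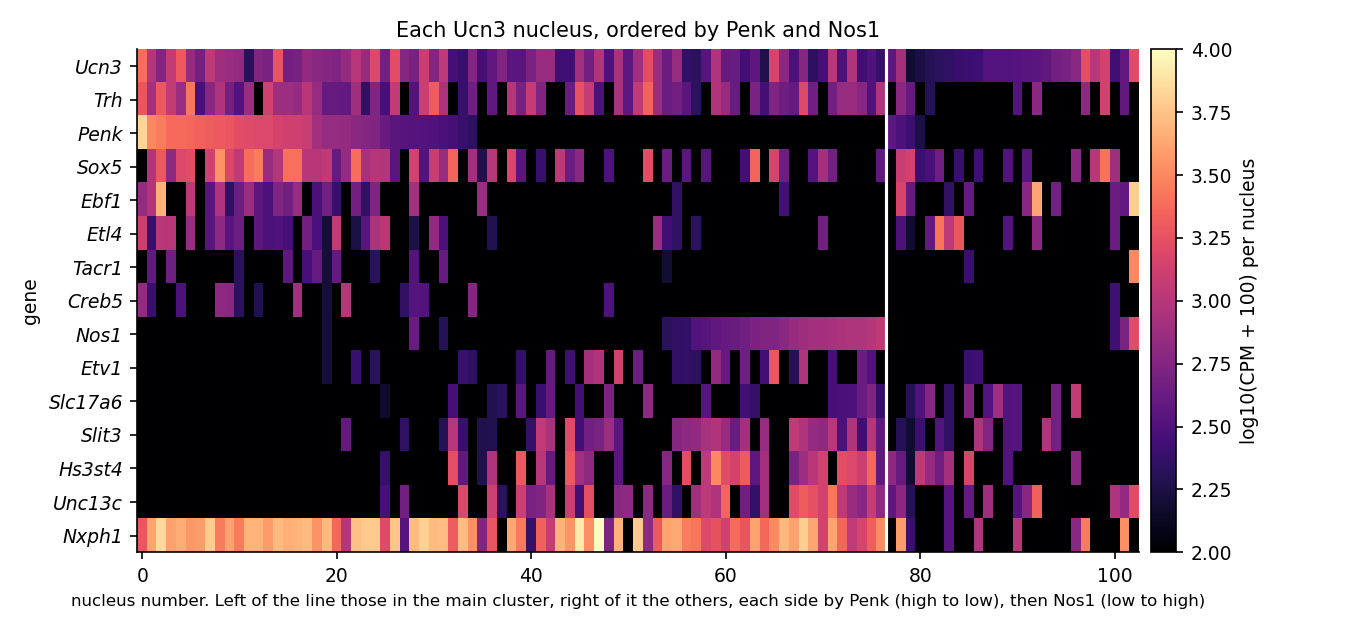
Level of 15 genes in each of the 103 Ucn3 nuclei as log10(CPM + 100), with black for no UMI; nuclei left of the white line lie in the main cluster, and each side is ordered by Penk, high to low, then by Nos1, low to high. Penk, Sox5, Ebf1 and Etl4 fill the left of the main cluster and Nos1, Slit3, Hs3st4 and Unc13c its right, while Ucn3, Trh and Nxph1 run across both.

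Main-cluster Ucn3 nuclei with 2 or more Penk UMIs (30 nuclei, median 7988.5 UMIs) were set against those with none (42 nuclei, median 5843 UMIs), a division made after the data were seen, on Penk, which is therefore not compared. Of 4292 genes, 264 (6.15%) were at least 2-fold higher and 304 (7.08%) lower in the Penk nuclei. Ebf1, an early B-cell factor, stood at 342 CPM in Penk nuclei against 34.0 CPM, 10.0-fold higher (5.04–22.7), and was found in 21 of 30 nuclei against 3 of 42. Sox5 stood at 1314 CPM against 306 CPM, 4.29-fold higher (3.35–5.54). Etl4 (9.80-fold, 4.91–22.2), Mctp1, a calcium-binding transmembrane protein gene (9.07-fold, 4.53–20.6), and Mcc (10.2-fold, 3.14–52.2) were also higher. The ratio of Etl4 was 1.90 when all 103 Ucn3 nuclei were divided in this way. Tacr1 had 22 UMIs against 1, Creb5 28 against 1, 3632451O06Rik 20 against 2 and Gm29683 21 against 0.

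Genes lower in the Penk nuclei included Hs3st4, Slit3 and Unc13c. Hs3st4, a heparan sulfate sulfotransferase gene, stood at 12.4 CPM against 658 CPM, a ratio of 0.0188 (0.00383–0.0558), and was found in 1 of 30 nuclei against 27 of 42. Slit3, a secreted axon guidance ligand, stood at 12.4 CPM against 401 CPM (0.0308, 0.00625–0.0925), and Unc13c, a presynaptic priming factor gene, at 28.8 CPM against 666 CPM (0.0433, 0.0172–0.0911). The ephrin receptor gene Epha3 had 0 UMIs against 33, and 2010300C02Rik 0 against 25. Plagl1, Arpp21 and Tmem132c had 1 UMI each against 30, 26 and 25. Nos1 had a ratio of 0.0907 (0.0322–0.207) and Etv1 of 0.104 (0.0270–0.286). Trh was present on both sides, at 581 CPM against 431 CPM, a ratio of 1.35 (1.04–1.74).

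Slc17a6 followed the same division. It had 1 UMI, or 4.12 CPM (0.104–22.9), in the 30 Penk nuclei and 22 UMIs, or 83.2 CPM (52.2–126), in the 42 nuclei without Penk, a ratio of 0.0495 (0.00120–0.306). The 8 GABAergic markers were all at 0 in the Penk nuclei, of which Gad1, Gad2 and Slc32a1 are limited by the rule. Of 25 glutamate and GABA genes compared, 1 was at least 2-fold higher and 7 lower in the Penk nuclei. Of 20 PVH transcription factors 4 were higher and 4 lower. Over all genes of this comparison, 6.15% were higher and 7.08% lower. Astrocyte markers summed to 98.9 CPM against 18.9 CPM, with 6 of 8 at 0 in each group. Nuclei with 2 or more Y-linked UMIs made up 26.7% against 11.9%. Xist nuclei, with at least 3 Xist UMIs and no Y-linked UMI, made up 56.7% against 59.5%. The part of astrocyte markers, sex mix and depth in these differences was not tested.

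Levels also varied with the number of Ucn3 UMIs, in nuclei with 1, 2 to 4 and 5 or more. Penk stood at 107, 406 and 758 CPM and Sim1 at 344, 456 and 695 CPM, both in that order. Nos1 ran the other way, at 178, 113 and 62.8 CPM, and Slc17a6 at 134, 49.6 and 9.66 CPM. Trh was highest in the middle group, at 198, 649.7 and 449 CPM, and Etv1 likewise, at 55.3, 135 and 29.0 CPM. Nxph1 stood at 1439, 3271 and 4225 CPM. The groups also differed in median depth, at 4973, 5929 and 8476.5 UMIs, and in the number inside the main cluster, 22 of 45, 34 of 36 and 21 of 22, and the part of these in the differences was not tested.

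The 52 main-cluster nuclei that did not meet the rule, 51 of which had no Ucn3 UMI, had more Nos1 and less Trh and Penk than its Ucn3 nuclei. Their Nos1 level was 246 CPM (193–309), against 145 CPM (115–182) in the 77 Ucn3 nuclei of that cluster. Trh stood at 149.8 CPM and Penk at 169.8 CPM in them, against 499.9 and 498 CPM, and Slc17a6 at 129.8 CPM against 44.8 CPM. Nxph1 was at 1795 CPM in them, against 3514 CPM in the Ucn3 nuclei of the cluster and 549.7 CPM in the Ucn3 nuclei outside it. The 26 nuclei outside also had less Penk, at 48.1 CPM, and more Slc17a6, at 158 CPM, and more Sst, at 199 CPM, than the 77 inside, where Sst stood at 42.9 CPM.

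By hashtag, Ucn3 nuclei made up 16 of 1347 nuclei labelled KD, 51 of 1591 labelled Q153R and 36 of 1966 labelled Ctrl. These shares were 1.19% (0.680–1.92) for KD, 3.21% (2.40–4.19) for Q153R and 1.83% (1.29–2.53) for Ctrl. The odds of being a Ucn3 nucleus in KD were 0.645 times those in Ctrl (0.333–1.20), an interval that included 1. In Q153R they were 1.78 times (1.13–2.82). For Q153R the odds ratio was 1.65 (1.09–2.52) with all nuclei of the main cluster counted and 2.05 (1.21–3.54) with only its Ucn3 nuclei. It was 2.04 (1.26–3.35) among nuclei with at least 2000 UMIs, 1.53 (0.833–2.82) with at least 2 Ucn3 UMIs required, 1.78 (0.940–3.37) in Xist nuclei alone, and 1.52 (0.889–2.65) among nuclei with a Sim1 UMI and few GABAergic UMIs. It was 1.77 (0.607–5.49) with at least 5 Ucn3 UMIs and 1.93 (0.934–3.95) with a stricter hashtag call. The ratio was above 1 in each of these counts, and the interval included 1 in the last 5.

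**Figure D4:**
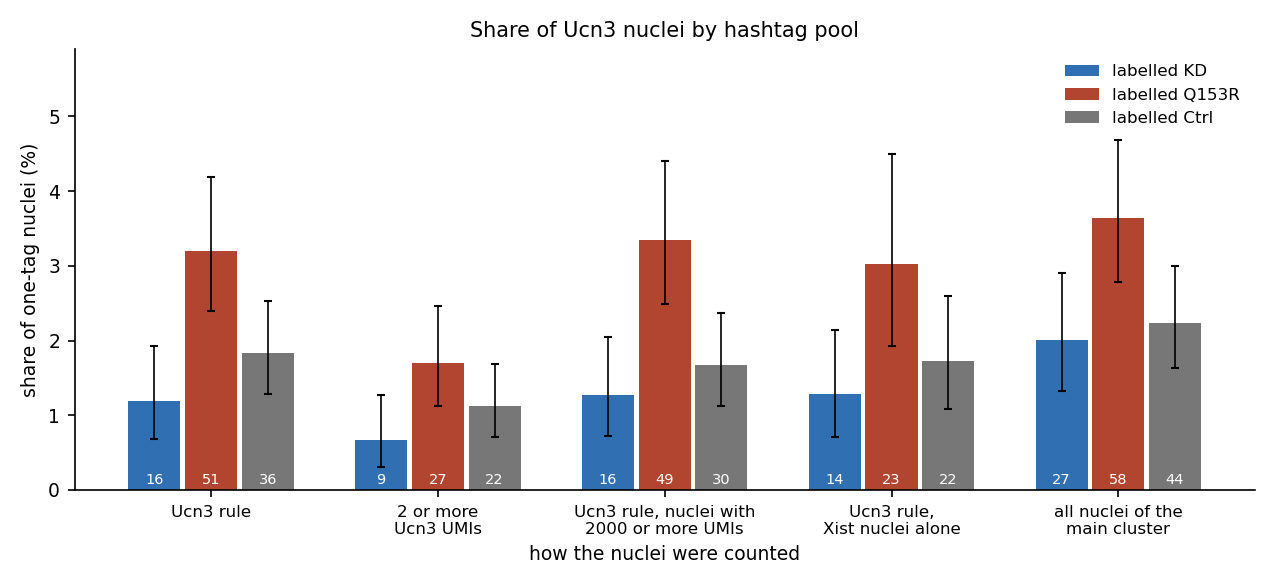
Share of one-tag nuclei that were Ucn3 nuclei, in percent, by hashtag and by way of counting, with 95% exact binomial intervals and the number of nuclei inside each bar. Nuclei labelled Q153R have the highest share in every count, and their interval overlaps that of Ctrl in each count other than that of nuclei with at least 2000 UMIs.

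The pools differed in depth and sex mix. Median depth of Ucn3 nuclei was 8080.5 UMIs in KD, 5969 in Q153R and 4884.5 in Ctrl, and Xist nuclei made up 87.5%, 45.1% and 61.1% of them. If all nuclei were thinned to 2000 UMIs, the expected share with a Ucn3 UMI under the rule would be 0.662% in KD, 1.95% in Q153R and 1.07% in Ctrl. The Penk and Nos1 sides were present in each pool. Nuclei with both transcripts numbered 2 of 16 in KD, 0 of 51 in Q153R and 1 of 36 in Ctrl. If independent, 2.25, 6.59 and 2.33 would hold both. The odds ratios were 0.764 (0.0470–9.09), 0 (0–0.217) and 0.281 (0.00544–2.83), so only the Q153R interval excluded 1. Main-cluster nuclei with 2 or more Penk UMIs numbered 4 of 16 in KD, 16 of 51 (31.4%, 19.1–45.9) in Q153R and 10 of 36 (27.8%, 14.2–45.2) in Ctrl. Nuclei with a Nos1 UMI made up 37.5% (15.2–64.6) of Ucn3 nuclei labelled KD, 31.4% (19.1–45.9) of those labelled Q153R and 19.4% (8.19–36.0) of those labelled Ctrl.

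As summed CPM, Trh and Penk were lower in the KD and Q153R Ucn3 nuclei than in the Ctrl ones. Trh was at 269 CPM (186–375) in KD, 387 CPM (323–459) in Q153R and 564 CPM (468–673) in Ctrl. KD stood at 0.477 times Ctrl (0.316–0.702) and Q153R at 0.686 times (0.532–0.885). Within the main cluster these were 0.442 (0.284–0.668) and 0.609 (0.469–0.792). In one-tag nuclei that were not Ucn3 nuclei, Trh had ratios of 0.647 (0.560–0.746) for KD and close to 1 (0.882–1.14) for Q153R. Penk was at 292 CPM (206–403) in KD, 381 CPM (318–453) in Q153R and 499 CPM (409–603) in Ctrl, with ratios of 0.586 (0.392–0.858) and 0.763 (0.586–0.995), against 0.892 (0.763–1.04) and 1.06 (0.908–1.23) outside the Ucn3 nuclei. The share of nuclei with a Penk UMI ran in another order, at 37.5% in KD (6 of 16), 41.2% in Q153R (21 of 51) and 33.3% in Ctrl (12 of 36), with at most 16, 21 and 14 UMIs in 1 nucleus. Ucn3 itself, part of the rule, was at 395, 425 and 508 CPM in KD, Q153R and Ctrl.

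**Figure D5:**
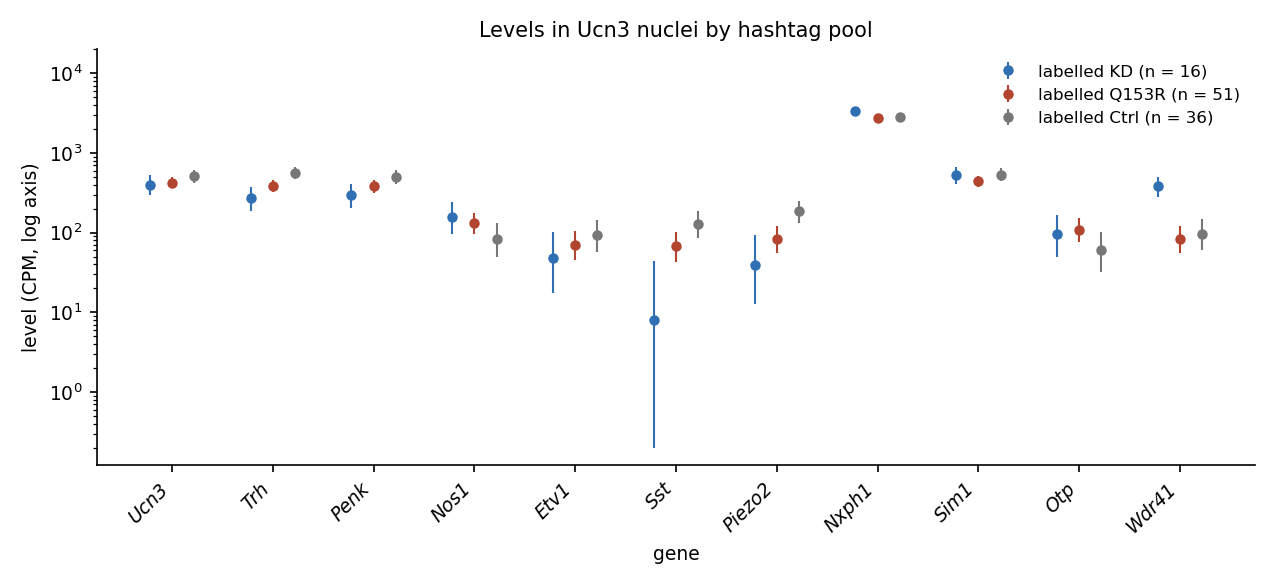
Level of 11 genes (CPM, log axis) in Ucn3 nuclei labelled KD (16), Q153R (51) and Ctrl (36), with 95% Poisson intervals. Trh, Penk and Piezo2 are highest in Ctrl, and Wdr41 is highest in KD at 379 CPM.

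Piezo2 showed the same order. It was at 39.5 CPM (12.8–92.2) in KD, with 5 UMIs, 82.7 CPM (54.9–119) in Q153R and 185 CPM (132–252) in Ctrl. Its ratios were 0.214 (0.0659–0.542) and 0.447 (0.266–0.743), while outside the Ucn3 nuclei they were 1.14 (0.879–1.47) and 1.02 (0.773–1.34). Nos1 ran the other way at 158, 133 and 83.2 CPM in KD, Q153R and Ctrl, with ratios of 1.90 (0.954–3.81) and 1.60 (0.906–2.93) whose intervals included 1. Within the main cluster the Nos1 ratios were 2.10 (1.04–4.26) for KD and 1.41 (0.783–2.65) for Q153R, of which the first interval lay above 1. Etv1, with 6 UMIs in KD, had ratios of 0.513 (0.169–1.32) and 0.767 (0.406–1.46), and of 0.357 (0.0886–1.06) and 0.701 (0.371–1.34) within the main cluster. Sim1 was close in the 3 pools, at 522, 443 and 536 CPM.

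Otp and its neighbour Wdr41 bear on the genotypes. Otp was at 94.8 CPM (49.0–166) in KD, 109 CPM (76.9–151) in Q153R and 60.1 CPM (32.0–103) in Ctrl Ucn3 nuclei, with ratios of 1.58 (0.658–3.75) and 1.82 (0.945–3.73). Outside the Ucn3 nuclei the Otp ratios were 1.66 (1.48–1.87) for KD and 2.46 (2.20–2.75) for Q153R. From these counts a floxed or Q153R transcript and a wild-type one cannot be told apart. Wdr41, at chr13:94976344-95023314 downstream of Otp at chr13:94875602-94885130 (GRCm38, both on the plus strand), was at 379 CPM (280–503) in KD, 82.7 CPM (54.9–119) in Q153R and 97.0 CPM (60.1–148) in Ctrl. Its ratio for KD was 3.91 (2.30–6.87), found in 14 of 16 KD nuclei, and 5.01 (4.56–5.52) outside the Ucn3 nuclei. For Q153R the Wdr41 ratio was 0.852 (0.467–1.58) in Ucn3 nuclei and 1.51 (1.34–1.71) outside them.

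For KD against Ctrl, 2429 genes could be compared, of which 74 (3.05%) were at least 2-fold higher and 138 (5.68%) lower. Many rested on few UMIs. Among genes with a UMI in at least 10 nuclei the highest were Utrn (4.45-fold, 2.07–10.3), Zfp804b, Plppr1, Ankrd42, Prr16, Wdr41, Gm20754 and Mctp1. With at least 5 Ucn3 UMIs required, the ratio of Utrn was 1.32. Zfp804b was 4.44-fold higher (3.15–6.36) but 0.731 times within the main cluster, and Mctp1 was 3.66-fold higher but 0.467 times with a stricter hashtag call. The lowest were Sst, with 1 UMI in KD against 28 in Ctrl (0.0611, 0.00149–0.369), Shc3, Sec24a, Scfd2, Eda, Ndufaf7, Piezo2 and Scg3, the last a granule protein gene at 0.221 times (0.0566–0.624). Within the main cluster Sst had 1 UMI against 12, a ratio of 0.149 (0.00348–1.004) whose interval included 1. Of the 28 Sst UMIs in Ctrl Ucn3 nuclei, 13 lay in 1 nucleus. Outside the Ucn3 nuclei the Sst ratio for KD was 0.692 (0.643–0.745).

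For Q153R against Ctrl, 3989 genes could be compared, of which 148 (3.71%) were at least 2-fold higher and 91 (2.28%) lower. Among genes with a UMI in at least 10 nuclei the highest were Tubgcp3 (26 UMIs against 1), the adhesion gene Kirrel3 (8.63-fold, 3.18–32.8), the synaptic vesicle gene Sv2b (7.03-fold, 2.20–35.8), 0610030E20Rik, Gab2, Ift122, Capza1 and Gnal, a G protein alpha subunit gene (3.43-fold, 1.78–7.24). The lowest were Inpp4b, a phosphoinositide phosphatase gene (0.182, 0.118–0.273), Rorb (0.193, 0.0953–0.366), Elk3, Mettl15, Foxp2, Ddi2, Mlxip and Rrbp1. Foxp2 had 66 UMIs in 5 Ctrl nuclei and 30 in 8 Q153R nuclei, a ratio of 0.290 that became 4.16 among nuclei with at least 2 Ucn3 UMIs. Elk3 had a ratio of 0.269 that became 1.35 with at least 5 Ucn3 UMIs.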

How the data were processed

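Nuclei of 17 mice were sequenced as 1 pooled gene-expression library with 1 hashtag library. Values are counts of UMIs, as deposited, in a matrix of 31053 genes and 3 hashtag features. Cell Ranger 6.0.0 and mm10 stand in the submitters' processing notes, and the matrix header names version 7.0.0. The annotation, intron setting, strand setting and cell calling remain not given in the sources used here. GENCODE vM21 on GRCm38 held 31011 of the gene IDs, and promoters came from RefSeq on GRCm38.p6.

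From these counts, barcodes with at least 500 genes were kept, a hashtag was called at 105 (Ctrl), 61 (KD) or 37 (Q153R) UMIs, and nuclei with exactly 1 tag were used. The library held 42833533 gene UMIs, with a median of 5681 per barcode. Removal of multi-tag nuclei takes out doublets between pools, while doublets within a pool were not removed other than in an alternative that drops nuclei above the 95th percentile of UMIs. Scanpy 1.11.5 scaled counts to 10000 per nucleus and clustered nuclei on 2000 variable genes without the 382 listed genes (30 components, 15 neighbours, Leiden resolution 1). Levels are summed UMIs over summed library size (CPM). Ratios have exact conditional binomial intervals, levels Poisson and shares Clopper-Pearson intervals (SciPy 1.17.1). Genes with at least 10 expected UMIs in the smaller group were compared and called at 2-fold. With 1 pool per genotype no test was made. A zero count allows up to 3 counts. The code was tested on simulated data.

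Named genes were all members of the marker, CRH, thyroid, opioid and nitric oxide lists, up to 3 highest and 3 lowest of each other list with an interval that excludes 1, the 12 highest and 8 lowest over all genes, and the 8 highest and 8 lowest of each pool comparison with at least 10 nuclei holding a UMI, with Otp and Wdr41. Genes named beyond that rule were chosen after their values were seen. A few genes that the rule selects are not reported here. The members and lists were chosen with earlier results of these data known. The Penk division and the main-cluster alternatives were added after seeing the data.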

Additional observations from a re-analysis of the deposited data

Results flagged for a closer look

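Barcodes outside the one-tag nuclei also held nuclei that met the Ucn3 rule. Among 1253 barcodes with more than 1 hashtag or none, 36 met it, or 2.87% (2.02–3.96), above the 0.239% that a count of 0 would allow. Among one-tag nuclei 103 of 4904 met it, with shares of 1.19% in KD, 1.83% in Ctrl and 3.21% in Q153R. The 2.87% lay within the range of these pools. Passing the zero-count bound thus shows only that such nuclei were present, not that their share was unusual. Of the 36, 35 were among the 1124 barcodes with more than 1 hashtag and 1 among the 129 with none. Barcodes with more than 1 hashtag or none enter no comparison, because no pool can be read from them, and barcodes with more than 1 tag can hold more than 1 nucleus.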

How the results depend on the processing

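No paired analysis was possible because all nuclei came from 1 pooled library with 1 pool per genotype and no shared replicate numbers. Counts of genes at least 2-fold apart moved mainly with the filter and the depth, which set how many genes are compared. Against other one-tag nuclei 471 genes became 261 after thinning to 2000 UMIs, 132 with at least 50 expected UMIs, 11763 with no filter and 717 without the top nucleus of each gene. Against Trh nuclei 618 became 347, 150 and 6938 under the first 3 of these. For KD against Ctrl 212 became 37, 6 and 6609, and also 130 with at least 5 Ucn3 UMIs and 81 with a stricter hashtag call. For Q153R against Ctrl 239 became 61, 6 and 6134, and also 158 with at least 5 Ucn3 UMIs and 396 with the mean CPM of nuclei. For the Penk division 568 became 200, 99 and 6566, and 371 with at least 2 Ucn3 UMIs.

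Among named genes at least 2-fold apart, 9 values turned to the other side of 1. With at least 5 Ucn3 UMIs, the ratio was 0.377 for Plagl1 against other nuclei, 0.526 for Foxp2 against Trh nuclei, 0.263 for Zfp804b in KD and 1.35 for Elk3 in Q153R. With at least 2 Ucn3 UMIs it was 0.372 for Zfp804b and 4.16 for Foxp2 in Q153R, which was 1.16 after thinning. Zfp804b was 0.731 in the main cluster and Mctp1 0.467 with the stricter hashtag call. Ratios short of 2-fold also crossed 1, among them Htr4 (0.911 with at least 5 Ucn3 UMIs) and Wdr41 in Q153R (2.45 after thinning). With direction kept, at least 1 alternative left Nos1, Kcnk13, Oprm1, Sox5, Pcsk1, Rab3b, Nos1ap and Sst against other nuclei short of 2-fold, and likewise Utrn, Prr16, Gm20754 and Eda in KD, Gab2, Ift122 and Ddi2 in Q153R and Etl4 in the Penk division. The cause was not tested. Of the rest, 1336 values lay inside the counting interval of the reported value and 316 outside it. The share of Ucn3 nuclei by pool kept its direction for Q153R in every alternative, while for KD the odds ratio was 1.04 with at least 5 Ucn3 UMIs, with an interval of 0.260 to 3.83. With 16 KD nuclei and 1 library, small ratios between pools could not be detected at this depth. The comparison with Crh nuclei had no alternatives run.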
